A study of Homo sapiens with 2 samples.

Results

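Heat shock proteins, J-proteins and the cytosolic chaperonin were compared between MCF-10A cells that had received an siRNA against SCTR and MCF-10A cells that had received a negative control siRNA. MCF-10A is a non-tumorigenic human mammary epithelial line, and SCTR encodes the secretin receptor. Members were the probes of the authors' processed table whose platform gene symbol names an HSP70, HSP110, HSP90 or small heat shock protein, a DNAJ protein, a chaperonin subunit, a BAG protein, HSPD1, HSPE1, STIP1 or SERPINH1. This gave 99 probes of 71 genes among 13060 named probes of 10161 genes. With a detection p under 0.01 required on at least 1 array, 94 probes of 70 genes were kept. Of these genes 66 were detected on both arrays and 4 on 1 array. HSPBP1, a nucleotide exchange factor of HSP70, lay just outside that limit with a detection p of 0.032 (control) and 0.11 (SCTR siRNA), and HSPA7, just inside it, had 0.013 and 0.0065. CCT6P1, a pseudogene of a chaperonin subunit, was left out, while HSPA7, annotated as a transcribed pseudogene, was kept. The heat shock factors HSF1 and HSF2 and 21 other symbols of these families were not analysed here.

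Each group held 1 bead array, so there were no replicates, nothing was tested, and every difference below is that of 2 arrays, whose number limits its precision. The labels give both groups the same cell line and differ in the siRNA alone, and they state neither its dose nor the time after transfection. No probe carried the name SCTR (0), so the knockdown itself could not be checked here, and which array is which is taken from the labels. The arrays were close in how much they detected, with 15229 probes on the control array and 15848 on the other passing the same limit out of 47316 with a signal. Of 10 genes listed for basal mammary epithelium 5 were measured, though CDH1 among them is not particular to basal cells. CDH1, CDH3, EGFR, ITGB4 and LAMB3 were all detected on both arrays, with a summed linear level of 21643 with control and 63465 with SCTR siRNA. Their part in the results below was not tested. The keratins KRT5, KRT14, KRT17 and KRT6B, TP63, the hormone receptors ESR1 and PGR, 5 of 6 fibroblast markers and the leukocyte markers PTPRC and CD3E were not analysed here. The fibroblast collagen COL1A1 was not detected on the control array (detection p 0.19) and was close to background on the other (0.0078). The leukocyte marker CD14 was detected on both arrays, at log2 levels of 11.92 and 13.70. The luminal marker FOXA1 was dim on both arrays (6.76 and 7.23), and GATA3 was detected on the SCTR siRNA array alone.

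Chaperones bind unfolded segments of other proteins and let them fold, cross a membrane or be degraded. HSP70 proteins do so in cycles of ATP hydrolysis. J-proteins deliver the client and start hydrolysis, and nucleotide exchange factors such as the HSP110 proteins and most BAG proteins release the client. HSP90 acts later on clients such as kinases and hormone receptors, which STIP1 hands over from HSP70. The chaperonin TRiC encloses actin, tubulin and other proteins in a chamber built from the subunits TCP1 and CCT2 to CCT8. The endoplasmic reticulum and the mitochondrion hold HSP70 proteins, J-proteins and further chaperones of their own. Genes of cytosolic chaperones are classically induced through heat shock elements in their promoters, and those of the endoplasmic reticulum through the unfolded protein response.

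The chaperones of the endoplasmic reticulum were mostly higher on the SCTR siRNA array, while those of the cytosol and mitochondria were spread around the level of the control array. Each difference is in normalized log2 level, SCTR siRNA minus control siRNA. Of the 66 members with a difference, 18 (27.3%) were at least 1.5-fold higher on the SCTR siRNA array, against 19.5% of all 8661 genes measured this way, and 6 (9.09%) were at least 1.5-fold lower, against 22.6% of all genes. The lower count depended on the processing: with no background removed it was 2 members (17.0% of all genes), and the authors' processed values gave 2 members as well (16.3% of all genes). At 2-fold, 11 members (16.7%) were higher and 1 (1.52%) was lower, against 9.73% and 8.44% of all genes. The median difference was 0.07 over the members and -0.09 over all genes. In RNA of a whole culture, a different share of cells and a different amount of transcript per cell cannot be told apart.

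**Figure D1:**
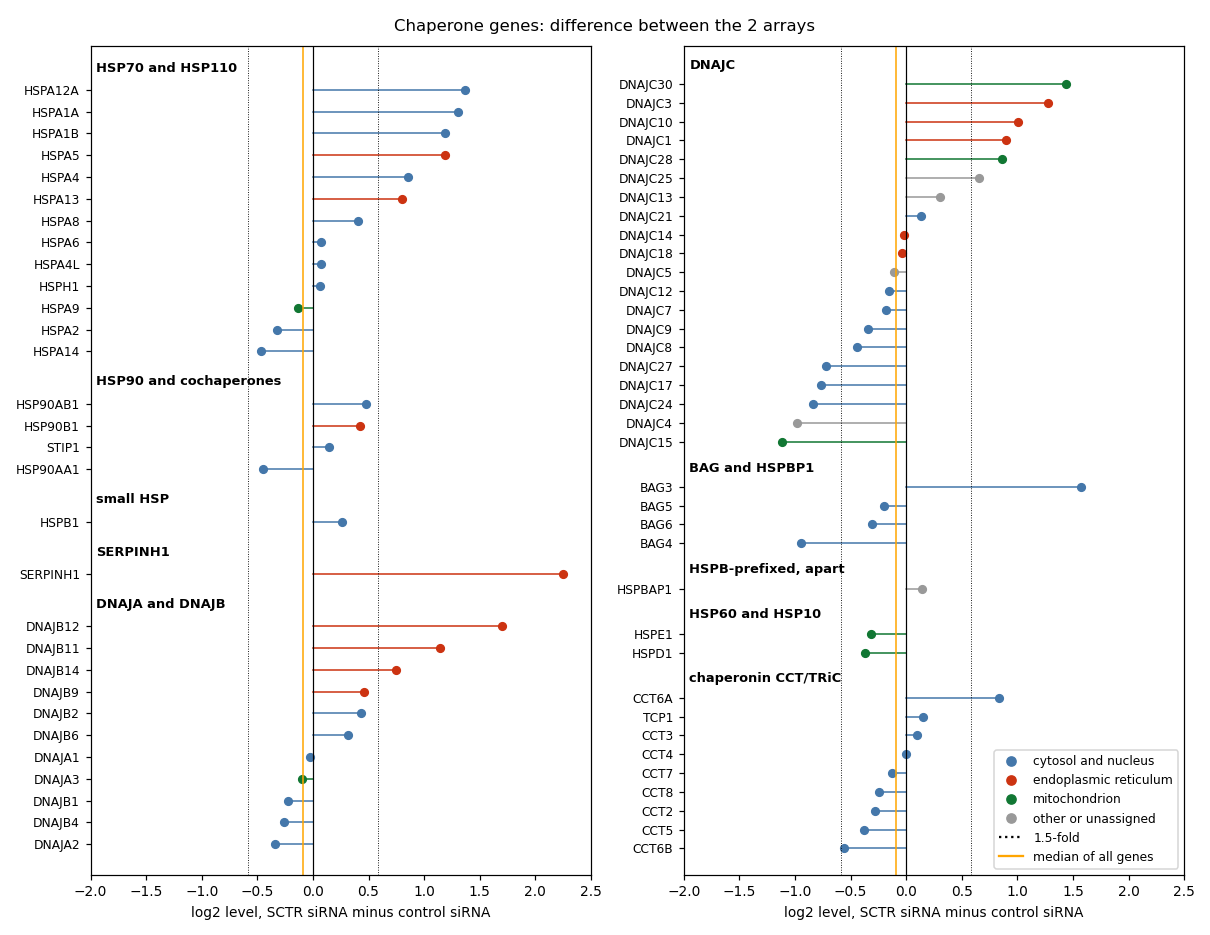
Difference in normalized log2 level, SCTR siRNA minus control siRNA, for the 66 members detected on both arrays, grouped by family and coloured by compartment, with dotted lines at 1.5-fold and an orange line at the median of all genes (-0.09). SERPINH1 (2.25) lies furthest to the right and DNAJC15 (-1.12) furthest to the left, and the red points of the endoplasmic reticulum start at -0.04.

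Of 13 members placed in the endoplasmic reticulum, 9 (69.2%) were higher by 1.5-fold or more and 0 were lower. The shares of all genes were 19.5% and 22.6%. For these 13 members the differences were as follows. The median was 0.89 and the range -0.04 to 2.25. With no background removed the median was 0.65, and in the authors' values it was 0.68. Among the 9 higher genes, DNAJC1 was below 1.5-fold in the authors' values, and DNAJB12 was past 1.5-fold by its brightest probe alone. The 53 members placed elsewhere had a median of -0.11, with 9 higher (17.0%) and 6 lower (11.3%). SERPINH1, the chaperone of procollagen also called HSP47, had a log2 level of 10.12 with control siRNA and 12.37 with SCTR siRNA, and raw intensities of 1189.8 and 5405 units. Its level was thus 4.75-fold higher on the SCTR siRNA array, the largest difference of any member in either direction. HSPA5, the HSP70 of the endoplasmic reticulum also called BiP and a classical gene of the unfolded protein response, was at 10.55 and 11.74, a 2.28-fold higher level. HSPA13, a second HSP70 protein of this compartment, was at 8.31 and 9.11. HSP90B1, its HSP90 (also called GRP94), differed less, with 13.64 and 14.07, and stayed within 1.5-fold.

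The J-proteins that work with BiP inside the endoplasmic reticulum were higher to different degrees. DNAJB11, which brings unfolded proteins to BiP, was at 11.85 with control siRNA and 13.00 with SCTR siRNA, a difference of 1.15. DNAJC3, a BiP cochaperone also known as an inhibitor of the stress kinase PERK, was at 7.65 and 8.92 (1.27). DNAJC10, a disulfide reductase that prepares misfolded proteins for export and degradation, was at 10.37 and 11.38 (1.01). All 3 were thus at least 2-fold higher on the SCTR siRNA array, but in the authors' values DNAJC3 (0.99) and DNAJC10 (0.98) fell just short of that. DNAJC1, a membrane J-protein, was dim on the control array, with 6.59 and 7.48, and its difference of 0.89 was 0.53 in the authors' processed values, below 1.5-fold. DNAJB9, which with BiP restrains the stress sensor IRE1, was within 1.5-fold at 10.45 and 10.92.

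The J-proteins anchored in this membrane with their J domain towards the cytosol gave mixed values. DNAJB14 was at 8.21 with control siRNA and 8.96 with SCTR siRNA. DNAJB12, its closest relative, was at 7.85 and 9.55 by its brightest probe, a difference of 1.70. The other 3 probes of DNAJB12 gave 0.12, 0.20 and 0.57, and the mean over its probes gave 0.65, so the size of its difference rests on 1 probe, which is annotated to another transcript accession. DNAJC14 and DNAJC18 did not share the direction, with differences of -0.02 and -0.04. Over the 9 J-proteins placed in the endoplasmic reticulum the median was 0.89, the value of DNAJC1, which was dim on the control array. The higher genes counted next include DNAJB12 and DNAJC1, and DNAJC1 was at 0.53 in the authors' values, below 1.5-fold. At least 1.5-fold higher were 6 (66.7%) and 0 were lower, against 19.5% and 22.6% of all genes.

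A list of further folding and translocation factors of this compartment, which also holds the J-protein SEC63 and the HSP110-like HYOU1, was measured beside the members. Of 26 listed partners of the endoplasmic reticulum 22 were measured, with a median of 0.78. At least 1.5-fold higher were 15 (68.2%) and 0 were lower, against 19.5% and 22.6% of all genes. PDIA4, a protein disulfide isomerase, had the largest difference at 2.91, from a dim level of 6.83 on the control array to 9.74. The prolyl isomerase FKBP14 was at 2.17 (second probe 1.26), SDF2L1, which assists BiP with DNAJB11, at 1.68, and HYOU1, an HSP110-like exchange factor of BiP, at 1.64 (second probe 1.62). Further partners at least 2-fold higher were the disulfide oxidase ERO1A (1.44), the glycoprotein folding sensor UGGT1 (1.26) and the disulfide isomerase P4HB (1.15). Disulfide formation, glycoprotein checking and nucleotide exchange on BiP were thus all represented. SIL1, another exchange factor of BiP, was at 0.80, and SEC63, the J-protein of the translocation channel, at 0.75. CRELD2 (-0.34), PPIB (-0.16) and SDF2 (-0.07) had the opposite sign, but PPIB was dim on both arrays (6.65 and 6.49).

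**Figure D2:**
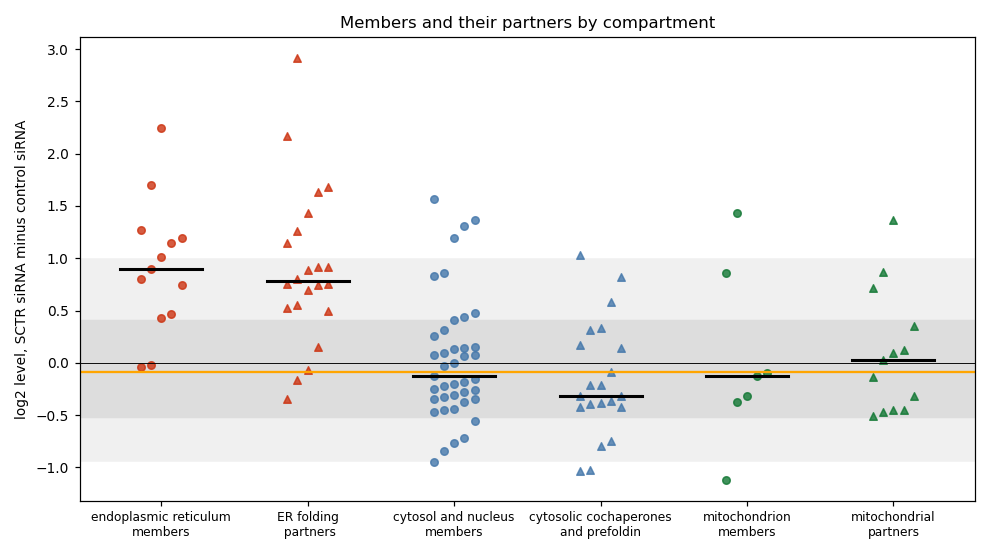
Difference in normalized log2 level, SCTR siRNA minus control siRNA, for members (circles) and listed partner genes (triangles) of 3 compartments, with black bars at the medians, grey bands for the middle 50% and the middle 80% of all genes, and an orange line at the median of all genes. The medians of the endoplasmic reticulum (0.89 and 0.78) lie above those of the cytosol (-0.13 and -0.31) and the mitochondrion (-0.13 and 0.03); members without a compartment are not drawn.

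The HSP70 and HSP110 genes had a median of 0.41. Of 13, 6 (46.2%) were higher by at least 1.5-fold and 0 were lower, against 19.5% and 22.6% of all genes. The higher genes were HSPA5, HSPA13, HSPA1A, HSPA1B, HSPA4 and HSPA12A. HSPA1A and HSPA1B, neighbouring genes for the stress-inducible HSP70, were at 9.54 and 11.55 with control siRNA and at 10.85 and 12.74 with SCTR siRNA. Their differences were 1.30 and 1.19. Both genes encode nearly the same protein, and how far their probes share signal was not tested. HSPA6, a strictly stress-inducible HSP70 gene, was close to background on both arrays (6.29 and 6.36).

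HSPA8, the constitutive HSP70 of the cytosol, was within 1.5-fold at 13.01 and 13.42 by its brightest probe. Its second probe gave 0.72, past 1.5-fold, so its place within 1.5-fold depends on the probe. HSPA4, an exchange factor of the HSP110 class, was 1.81-fold higher (8.73 and 9.58). The other members of that class showed no such difference, with HSPA4L at 0.07 and HSPH1 at 0.06. HSPA12A, a distant relative of the HSP70 proteins, was at 7.91 with control siRNA and 9.27 with SCTR siRNA, a difference of 1.37. HSPA14, which acts at the ribosome, went the other way at 8.60 and 8.12, and HSPA2, known from the testis, was close to background (6.30 and 5.98).

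The cytosolic HSP90 genes had differences of opposite sign. HSP90AA1, the stress-inducible form, was at 13.56 with control siRNA and 13.10 with SCTR siRNA, a difference of -0.45. Its other probes gave -0.41 and -0.33, the latter from a probe close to background on both arrays (6.29 and 5.96). HSP90AB1, the constitutive form, was at 12.12 and 12.60, a difference of 0.48. Each stayed within 1.5-fold, and both signs were the same without background correction, under median scaling and in the authors' values. STIP1 was at 10.24 and 10.39. HSPB1, the small heat shock protein also called HSP27, was at 13.32 and 13.58 and was the only gene of its family measured. HSPBAP1, whose product binds HSPB1, was at 8.93 and 9.07.

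**Figure D3:**
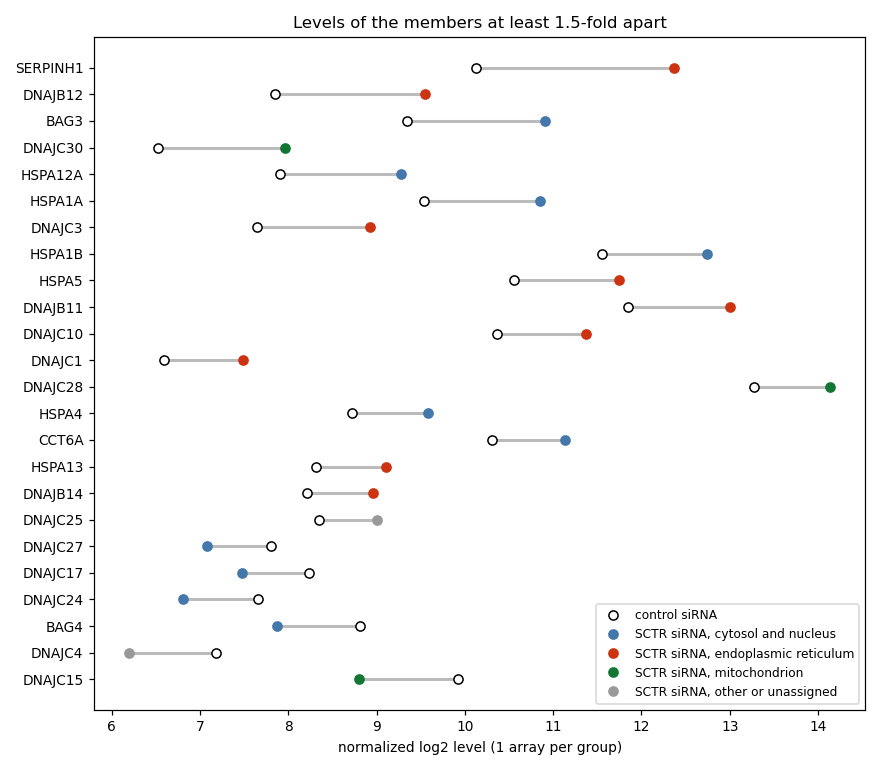
Normalized log2 levels on the control array (open circles) and the SCTR siRNA array (filled circles, coloured by compartment) for the 24 members at least 1.5-fold apart, 1 array per group. The 18 upper genes are higher and the 6 lower genes are lower on the SCTR siRNA array; a gene's position along the axis also depends on its probe, so levels are read within a gene.

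J-proteins of the cytosol and nucleus mostly had small negative differences, unlike those of the endoplasmic reticulum. Over 14 of them the median was -0.24. At least 1.5-fold higher were 0, against 19.5% of all genes, and 3 (21.4%) were lower, near the 22.6% of all genes. Those 3 were DNAJC24 (-0.84), which takes part in the diphthamide modification of elongation factor 2, the nuclear DNAJC17 (-0.76) and DNAJC27 (-0.72), which joins a J domain to a small GTPase. In the authors' values they were at -0.49, -0.51 and -0.44, within 1.5-fold. DNAJB1, the main heat-inducible J-protein of the cytosol and a partner of the stress-inducible HSP70, was at 10.40 with control siRNA and 10.17 with SCTR siRNA. DNAJA1 was at 12.93 and 12.90, and DNAJA2 at 11.31 and 10.97. These J-proteins thus stayed within 1.5-fold on the same 2 arrays on which HSPA1A and HSPA1B were at least 2-fold apart.

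Other cytosolic and nuclear J-proteins stayed within 1.5-fold. DNAJB2 (0.44) and DNAJB6 (0.32), which hold back protein aggregation, were positive. DNAJC8, a protein of the spliceosome, was at -0.45, the histone cochaperone DNAJC9 at -0.35, and DNAJC7, which links HSP70 to HSP90, at -0.18. DNAJB4 (-0.26), DNAJC12 (-0.16) and the ribosome maturation factor DNAJC21 (0.13) completed them. Among J-proteins given no compartment here, DNAJC25 was at 0.66, the endosomal DNAJC13 at 0.30, DNAJC5 of secretory vesicles at -0.11 and DNAJC4 at -0.98. With SCTR siRNA, DNAJC4 lay near background (detection p 0.0065) and was at -0.49 in the authors' values, and DNAJC25 was at 0.56 there.

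The mitochondrial chaperones for newly imported proteins were near the control level, whereas 3 mitochondrial J-proteins differed in both directions. HSPD1 and HSPE1, the HSP60 and HSP10 of the matrix, were at 13.81 and 10.70 with control siRNA and at 13.44 and 10.39 with SCTR siRNA. HSPA9, the mitochondrial HSP70, was at 13.21 and 13.08, and its J-protein DNAJA3 at 12.02 and 11.92. All 4 had small negative differences within 1.5-fold, while the second probe of HSPE1 gave a larger one of -0.57, just inside that limit. DNAJC15, a J-protein of the inner membrane known from mice as a brake on respiratory complex I, was at 9.92 and 8.80, a 2.17-fold lower level on the SCTR siRNA array and the lowest difference of all members. DNAJC30, a mitochondrial J-protein, was at 6.53 and 7.96 (1.43), dim on the control array, at 0.76 by its second probe and at 0.89 in the authors' values. DNAJC28 was at 13.27 and 14.14 (0.86).

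The mitochondrial partners were mostly within 1.5-fold. Of 15 listed genes 13 were measured, with a median of 0.03. At least 1.5-fold higher were 3 (23.1%), near the 19.5% of all genes, and 0 were lower, against 22.6% of all genes. The matrix protease LONP1, known to degrade misfolded proteins, was at 1.37, the inner membrane protease subunit SPG7 at 0.86 and GRPEL1, the exchange factor of HSPA9, at 0.72. HSCB, the J-protein of iron-sulfur cluster assembly, was at -0.45 by its brightest probe, while its second probe gave -1.36, so its place within 1.5-fold depends on the probe. The unfoldase CLPX was at -0.51, and TRAP1, the mitochondrial HSP90, at -0.14.

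The subunits of TRiC stayed close to the control level with 1 exception. The 9 chaperonin genes had a median of -0.13. At least 1.5-fold higher was 1 (11.1%) and 0 were lower, against 19.5% and 22.6% of all genes. CCT6A was at 10.30 with control siRNA and 11.14 with SCTR siRNA, a difference of 0.83, and its second probe gave 0.68. CCT6B, known as a testis form of that subunit, was close to background at 6.55 and 5.99. The other subunits ranged from -0.38 (CCT5) to 0.16 (TCP1), with CCT2 at -0.28, CCT8 at -0.25, CCT7 at -0.13, CCT4 at 0.00 and CCT3 at 0.09. The 3 probes of TCP1 gave 0.16, 0.58 and -0.54, so its direction depends on the probe.

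Prefoldin, the cofactor that delivers unfolded actin and tubulin to TRiC, had both of its largest differences on the negative side. PFDN1 was at 10.66 and 9.62 (-1.04) and PFDN5 at 13.25 and 12.22 (-1.03, second probe -0.93). PFDN2 (0.33), PFDN6 (0.14) and VBP1 (-0.21) were within 1.5-fold. Of 27 listed cytosolic cochaperones and prefoldin genes 21 were measured, with a median of -0.31. By at least 1.5-fold, 2 (9.52%) were higher and 4 (19.0%) were lower, against 19.5% and 22.6% of all genes. The J-protein GAK, which uncoats clathrin vesicles, was at 1.03 and the cochaperone SGTA, dim on the control array (6.81), at 0.82. HSBP1, a binding protein of heat shock factor, was at -0.80 and the HSP90 cochaperone FKBP5 at -0.75. PPID, another HSP90 cochaperone, was detected on the control array alone and was at least 2.69-fold higher there.

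The BAG proteins, most of them exchange factors that tie HSP70 to different fates of its client, differed from each other. BAG3, which directs clients to autophagy and is a classical heat shock gene, was at 9.34 with control siRNA and 10.91 with SCTR siRNA, a 2.96-fold higher level. BAG4, which binds death domains of receptors, was at 8.82 and 7.87, a 1.93-fold lower level, and its second probe gave -0.88. BAG5 (-0.20) and BAG6 (-0.31) were within 1.5-fold, with second probes at -0.38 and -0.21.

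Of the 4 genes detected on 1 array, BAG2 was at least 1.47-fold, HSPA1L at least 1.39-fold and DNAJB5 at least 1.37-fold higher on the control array, and HSPA7 at least 1.12-fold higher on the SCTR siRNA array. Each bound compares the detected level with the dim one, or, where the dim one was below it, with the detection floor of that array (6.04 for the control and 5.91 for SCTR siRNA). All 4 lay close to background on the array that detected them.

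Several probes of a gene give the only check of precision within these arrays. Over 1902 genes, the 2 brightest probes detected on both arrays gave differences that were apart by a median of 0.19 on the log2 scale, with a 95th percentile of 1.04. Over 16 members with such probes the median gap was 0.17, and the largest, of DNAJB12, was 1.58. This gap holds no spread between cultures.

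**Figure D4:**
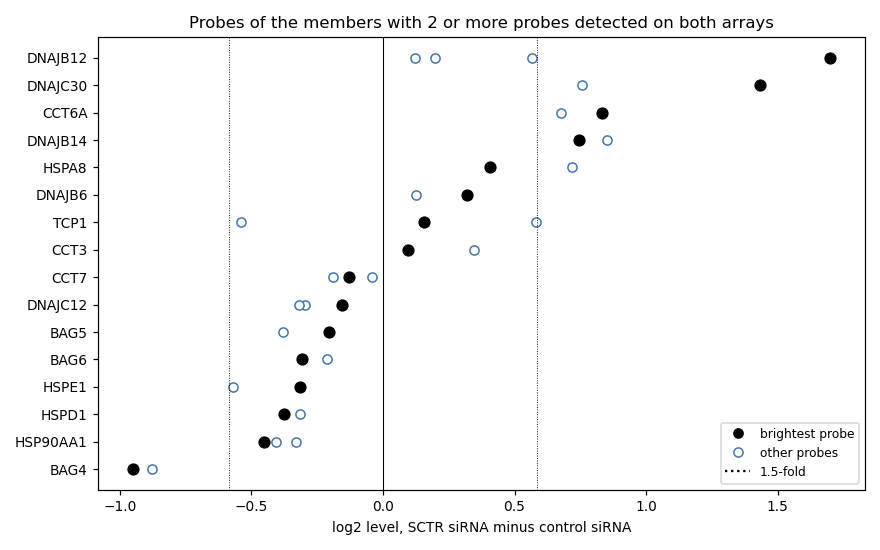
Difference in normalized log2 level, SCTR siRNA minus control siRNA, of each probe of the 16 members with 2 or more probes detected on both arrays; filled circles mark the brightest probe, which stands for the gene, and dotted lines mark 1.5-fold. The probes of BAG4, CCT6A and DNAJB14 lie close together, those of DNAJB12 spread from 0.12 to 1.70, and those of TCP1 lie on both sides of 0.

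Promoter sequences were set beside these values, since the families are known for regulation through shared elements. RefSeq windows (GRCh38.p14) from 250 bases before to 50 bases after a transcript's start were given for 61 of the 66 members, 81 windows in all. Searched on both strands were the heat shock element (the triplets TTC, GAA and TTC in this order, with any 2 bases between neighbours), the ER stress element (CCAAT and CCACG with any 9 bases between them) and the TATA box (TATAAA), and the motifs did not overlap each other in the windows printed. The 200 bases before the start are shown 5′ to 3′ for 6 members from a chosen list, with exact matches in capitals. Only windows with a searched motif in these bases were printed, so they do not show how common the motifs are. Members with large differences such as DNAJB12 (1.70), BAG3 (1.57) and DNAJC15 (-1.12) are not among them.
SERPINH1 (chr11:75562053-75562252, plus strand): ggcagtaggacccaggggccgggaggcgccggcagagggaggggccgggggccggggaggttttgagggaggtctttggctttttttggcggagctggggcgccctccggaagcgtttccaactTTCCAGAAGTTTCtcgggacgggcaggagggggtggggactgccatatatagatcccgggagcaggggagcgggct
HSPA1A (chr6:31815343-31815542, plus strand): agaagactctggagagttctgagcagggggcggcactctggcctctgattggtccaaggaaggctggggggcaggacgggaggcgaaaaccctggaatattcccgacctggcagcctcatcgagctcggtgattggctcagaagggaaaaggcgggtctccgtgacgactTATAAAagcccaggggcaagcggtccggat
HSP90AA1 (chr14:102087045-102087244, minus strand): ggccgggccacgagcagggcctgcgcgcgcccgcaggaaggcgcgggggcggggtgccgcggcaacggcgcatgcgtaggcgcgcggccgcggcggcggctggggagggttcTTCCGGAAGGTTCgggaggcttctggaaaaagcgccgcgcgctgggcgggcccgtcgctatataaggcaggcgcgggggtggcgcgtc
HSP90AB1 (chr6:44247743-44247942, plus strand): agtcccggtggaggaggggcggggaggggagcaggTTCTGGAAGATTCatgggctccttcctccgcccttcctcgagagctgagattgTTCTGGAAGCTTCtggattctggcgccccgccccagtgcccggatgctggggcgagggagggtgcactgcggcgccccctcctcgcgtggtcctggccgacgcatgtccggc
HSPA5 (chr9:125241344-125241543, minus strand): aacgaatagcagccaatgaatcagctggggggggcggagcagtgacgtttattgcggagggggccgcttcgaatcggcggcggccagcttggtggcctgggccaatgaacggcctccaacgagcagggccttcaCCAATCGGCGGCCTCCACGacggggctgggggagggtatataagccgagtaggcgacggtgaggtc
HSP90B1 (chr12:103930210-103930409, plus strand): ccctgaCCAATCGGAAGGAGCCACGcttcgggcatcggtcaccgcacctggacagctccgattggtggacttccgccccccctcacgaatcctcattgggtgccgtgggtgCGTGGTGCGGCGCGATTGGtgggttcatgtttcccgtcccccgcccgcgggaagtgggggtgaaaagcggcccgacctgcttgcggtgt

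An exact heat shock element was found in 8 of the 81 member windows (9.88%) and in 172 of 35116 windows of all genes (0.49%). The 8 genes had differences from -0.45 to 2.25 with a median of 0.19, and 1 of them, SERPINH1, was at least 1.5-fold apart. SERPINH1 holds it from -76 to -64 bases from the start, HSP90AA1 from -88 to -76, and HSP90AB1 holds 2, from -165 to -153 and from -112 to -100. Both cytosolic HSP90 genes thus hold the same element and had differences of opposite sign. The others were HSPA6, HSPA8, HSPD1, DNAJA1 and DNAJB6. The HSPA1A window holds no exact heat shock element in its letters but a TATA box from -30 to -25, and the HSPA1B window one from -29 to -24. An ER stress element was found in 2 member windows, of HSPA5 (from -66 to -48) and HSP90B1 (from -194 to -176 and, on the minus strand, from -89 to -71), and in 27 of all windows (0.0769%). The TATA box was found in 7 member windows (8.64%) and in 11.5% of all windows. A match is a description of the letters and not a shown binding site.

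**Figure D5:**
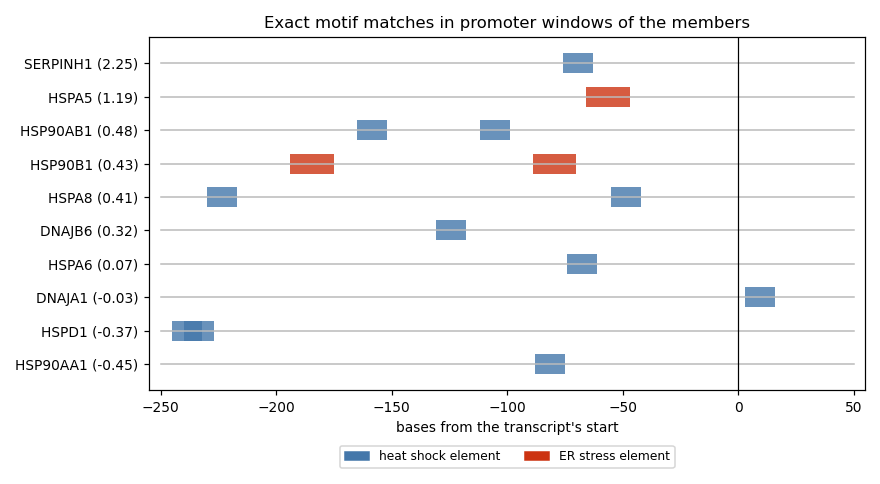
Positions of exact heat shock elements (blue) and ER stress elements (red) in the promoter windows of members that hold one, in bases from the transcript's start, with the member's log2 difference (SCTR siRNA minus control siRNA) in brackets. Genes with a heat shock element run from -0.45 (HSP90AA1) to 2.25 (SERPINH1).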

How the data were processed

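The deposited non-normalized table holds, for every probe and array, its intensity and its detection p-value, and GenomeStudio 2011.1 is named in the submitters' processing notes. The authors' processed table holds log2 levels for 16871 probes, by steps not given in the sources used here. Symbols came from the platform annotation of that table (13060 probes with 1 symbol); 13054 gene IDs matched RefSeq (GRCh38.p14), which changed 0 symbols.

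Background was removed from the intensities with limma 3.58.1 in R 4.3.3 (normexp, offset 16, background estimated through the detection p-values). Quantile normalization and log2 followed. The brightest probe detected on both arrays (detection p under 0.01) stood for a gene. The steps were tested on simulated data. No p-values were made, for want of replicates; genes were counted at 1.5-fold and 2-fold. A family with under 3 members measured got no median. Compartments were assigned by hand from general knowledge.

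Every member could be named, and of each partner list the 4 largest absolute differences and genes at least 2-fold apart; other partners named (SIL1, SEC63, CRELD2, PPIB, SDF2, SGTA, HSBP1, FKBP5, PFDN2, PFDN6, VBP1, TRAP1, HSCB) were chosen after their values were seen. Members and lists were chosen with earlier results of these data known.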

Additional observations from a re-analysis of the deposited data

How the results depend on the processing

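Of 105 recomputed medians and counts, 94 stayed within 0.19 on the log2 scale or within 1.5 times a count. Some of the 94 could not move, because the setting left the genes of that group and their values unchanged. The endoplasmic reticulum median, for example, stayed at 0.89 with a detection p under 0.05 and with genes detected on 1 array at their bound. The 0.19 is the median gap between 2 probes of a gene. A change of sign was looked for only in medians that reached 1.5-fold. Among them was only that of the endoplasmic reticulum (0.89), which kept its sign. With no background correction, and likewise in the authors' values, members at least 1.5-fold lower numbered 2 in each, and the median of the endoplasmic reticulum was 0.65 and 0.68. The 2 lower genes kept in the authors' values were BAG4 and DNAJC15, and 16 of 18 higher genes were kept. Among members whose mean log2 level reached 9, counts were 10 higher and 1 lower of 41 members (20.4% and 21.3% of all genes at that level). There the median of the cytosol and nucleus changed sign, from -0.13 to 0.071, and that of the HSP70 and HSP110 family was 0.63. With genes detected on 1 array at their bound, the latter was 0.17. A 2-fold rule gave 11 higher and 1 lower. Of 437 recomputed values of single members 27 moved by over 0.19. Many of the others could not move, because the level and detection settings reused the main value. So did the mean over probes for genes with a single detected probe. A reversal was counted only for members at least 1.5-fold apart, and 0 were found. DNAJC14 and CCT4, with very small differences, had the opposite sign in the authors' values. Dim signals limit DNAJC1, DNAJC4, DNAJC21, DNAJC30, HSPA2, HSPA6, CCT6B and 1 probe of HSP90AA1. No paired analysis was possible because each group has 1 array.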
